A study of Mus musculus with 10 samples.

Results

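The genes described here are 10 stromal niche factors: Cxcl12, Kitl, Il7, Angpt1, Cxcl14 and Il34, which encode secreted or membrane-bound ligands, Vcam1, an adhesion molecule, Lepr, the leptin receptor, and Ebf3 and Foxc1, which are transcription factors. They were taken by name from the 19938 genes that had a probe set with their symbol alone, and each of the 10 had 1 such probe set. Marrow cells from the long bones of Swiss male mice aged 4 to 6 weeks were cultured in αMEM. Every culture of both arms held 10% fetal calf serum and 1e-08 M calcitriol, the active form of vitamin D. The control arm received vehicle and the adiponectin arm recombinant mouse adiponectin, a hormone of fat cells, at 5 µg/ml. RNA of 1 culture per arm was put on an Affymetrix whole-transcript array at each of 4, 10, 24, 72 and 120 h, which gave 10 arrays. The series title names lipopolysaccharide contamination, so in the adiponectin arm the hormone and a contaminant of its preparation cannot be told apart. The labels name no batch, scan date or animal behind a culture. With 1 array per arm and time, p-values rest on the scatter around a fitted time trend, or of the differences between arms over the times. That scatter is no spread between replicate cultures, and it may be technical.

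In bone marrow, a sparse network of perivascular stromal cells that carry the leptin receptor and very high levels of CXCL12 makes most of the signals that hold and feed haematopoietic stem cells and lymphoid precursors. CXCL12 acts through CXCR4 to keep stem cells and B cell precursors in place, KIT ligand (stem cell factor) sustains stem cells through KIT, and interleukin 7 drives B cell precursors through its receptor. EBF3 and FOXC1 are transcription factors that this stromal population needs to keep its niche function and to stay out of the bone-forming or fat fate. Marrow put into culture contains few such cells at first, mixed with many blood cells. In RNA from whole cultures, more cells of a type and more RNA per cell cannot be told apart.

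Cxcl12, Kitl, Ebf3 and Foxc1 rose over culture time in both arms, and Il7 rose in the adiponectin arm. Change over time was the slope on log2 hours, that is the log2 change per doubling of time in culture, fitted for each arm with limma and adjusted over all 19938 genes (a rise is an adjusted p under 0.05). In the control arm 4 of the 10 members rose, against 4.64% of all genes, and in the adiponectin arm 5 of 10, against 4.15%. The members and the gene lists below were chosen with earlier results of these data known, so such shares are a description and no independent test. The 4 that rose in control cultures were among the 5 of the adiponectin arm, and 2.27% of all genes rose in both arms. No member fell in either arm by this limma test; at an unadjusted p under 0.05 Vcam1 was lower with time in the control arm. The median slope of the members was 0.07 in control and 0.19 in adiponectin cultures, beside 0.02 and -0.01 over all genes. With each array centred on its median over all genes, the members called were as many (4 and 5), but the control split over all genes moved from 925 risen and 888 fallen to 738 and 1559. With both 72 h arrays or both 120 h arrays left out, 0 members passed in either arm, and over all genes at most 6 rose in the control arm and at most 63 in the adiponectin arm.

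**Figure D1:**
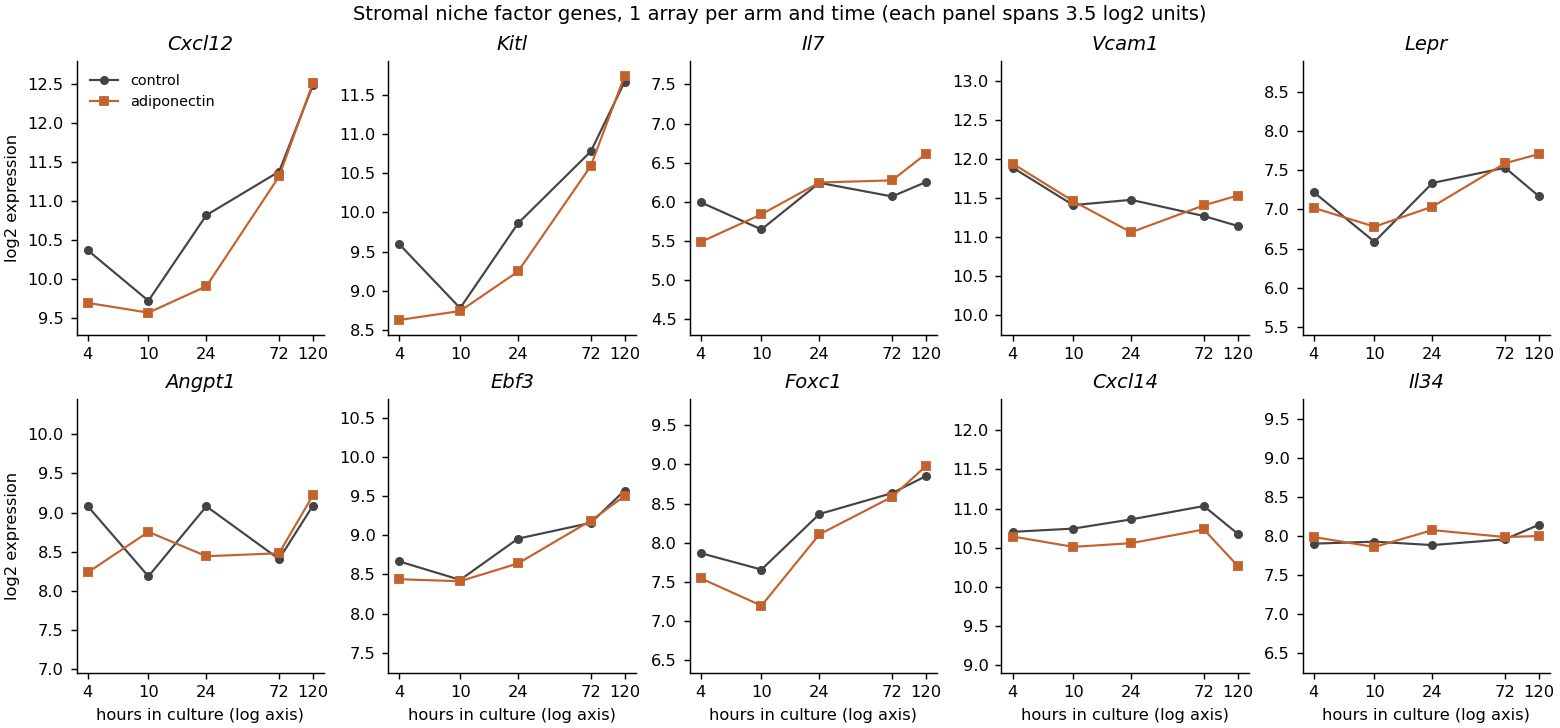
Log2 expression of the 10 stromal niche factor genes against hours in culture (log axis), 1 point per array, with control arrays as dark circles and adiponectin arrays as orange squares. Every panel spans the same number of log2 units, so slopes can be compared by eye, and Cxcl12 and Kitl climb most, while Il34 and Cxcl14 stay within 0.764 log2 units over all arrays.

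Cxcl12, which encodes the chemokine that retains stem cells and lymphoid precursors in marrow, was at 10.37, 9.72, 10.82, 11.38 and 12.48 on the log2 scale in control cultures from 4 to 120 h. In adiponectin cultures it was at 9.70, 9.57, 9.91, 11.31 and 12.51. The 4 late arrays (72 and 120 h) all lay above the 6 early ones (4, 10 and 24 h), with 11.31 the lowest late and 10.82 the highest early value. From 4 to 120 h this is a 4.32-fold rise in control and a 7.01-fold rise in adiponectin cultures. The slope was 0.45 (SE 0.12, adjusted p = 0.0482) in control and 0.57 (SE 0.12, adjusted p = 0.0221) in adiponectin cultures. The steps between times were unlike in the arms. Control cultures gained 1.09 between 10 and 24 h, while the adiponectin cultures gained 0.34 there and 1.40 between 24 and 72 h. The lowest control value was at 10 h, in the array that also had the lowest median over all genes (8.27, against 8.40 to 8.48 in the other 9).

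Kitl encodes stem cell factor, the ligand of the KIT receptor. It was at 9.59, 8.78, 9.86, 10.78 and 11.67 in control cultures from 4 to 120 h and at 8.63, 8.74, 9.25, 10.59 and 11.75 in adiponectin cultures. As for Cxcl12, the late arrays did not overlap the early ones. From 4 to 10 h the control value of Kitl changed by -0.81 and the adiponectin value by 0.11, while Cxcl12 was lower at 10 h than at 4 h in both arms. The values at 120 h were 4.22-fold those at 4 h in control and 8.70-fold in adiponectin cultures. The slopes were 0.48 (SE 0.12, adjusted p = 0.0342) and 0.63 (SE 0.12, adjusted p = 0.0128).

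Both transcription factor genes followed the same course with smaller changes. Ebf3 was at 8.67, 8.43, 8.96, 9.16 and 9.57 in control cultures and at 8.44, 8.41, 8.64, 9.19 and 9.50 in adiponectin cultures. Its slopes were 0.20 (SE 0.05, adjusted p = 0.0292) and 0.23 (SE 0.05, adjusted p = 0.0174), and at 120 h it stood 1.88-fold and 2.09-fold above 4 h. The arms nearly coincided at 10, 72 and 120 h. Foxc1 was at 7.87, 7.66, 8.37, 8.63 and 8.85 in control cultures and at 7.54, 7.19, 8.11, 8.59 and 8.98 in adiponectin cultures. Its slopes were 0.23 (SE 0.06, adjusted p = 0.0375) and 0.33 (SE 0.06, adjusted p = 0.0101), with a 1.98-fold and a 2.70-fold rise from 4 to 120 h. All early Foxc1 values (4, 10 and 24 h) lie below the array medians over all genes, where the background level was not analysed. For both genes every late array lay above every early one. Such a separation was found for 4 of 10 members (Cxcl12, Kitl, Ebf3 and Foxc1), and for 7.35% of all genes.

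The promoters of the members that rose together can be set side by side. Of the 10 members 6 were matched in the RefSeq promoter table used here (GRCm38.p6): Cxcl12, Kitl, Lepr (with 2 windows), Ebf3, Foxc1 and Cxcl14. The 250 bases before the start are printed for Cxcl12 and Foxc1, since they rose in both arms and their windows lie wholly before the annotated gene. They run 5′ to 3′ on the plus strand, Cxcl12 at chr6:117168285-117168534 and Foxc1 at chr13:31806396-31806645.
Cxcl12: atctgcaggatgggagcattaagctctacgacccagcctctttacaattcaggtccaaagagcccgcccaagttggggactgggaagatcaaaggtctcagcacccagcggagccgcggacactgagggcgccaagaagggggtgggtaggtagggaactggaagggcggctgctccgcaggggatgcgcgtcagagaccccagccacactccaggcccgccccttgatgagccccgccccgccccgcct
Foxc1: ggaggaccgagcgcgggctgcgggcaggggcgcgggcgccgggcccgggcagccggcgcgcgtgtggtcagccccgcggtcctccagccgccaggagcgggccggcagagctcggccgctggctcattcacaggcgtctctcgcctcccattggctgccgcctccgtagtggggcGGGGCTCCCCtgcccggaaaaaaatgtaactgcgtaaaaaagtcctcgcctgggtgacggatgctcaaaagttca
Capitals mark the match to the NF-kB consensus, searched on both strands, which starts 75 bases before the Foxc1 start and is held by 3.90% of the 32841 promoters of this length. Cxcl12, Kitl, Lepr, Ebf3 and Cxcl14 have no match to it in this window. The EBF motif CCCNNGGG, the same on both strands, was found in Ebf3 alone among the 6, starting 21 bases before the start, and in 11.8% of all promoters. CG pairs numbered 14 in Cxcl12, 29 in Foxc1, 23 in Kitl and 43 in Ebf3, and 16 in Cxcl14 and 10 in each Lepr window, against a median of 6 over all promoters, so all 6 matched members lay above it, whether or not they rose. These matches describe the letters of the windows.

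Il7, the growth factor of B cell precursors, was at 5.99, 5.65, 6.24, 6.07 and 6.25 in control cultures and at 5.49, 5.84, 6.25, 6.27 and 6.61 in adiponectin cultures from 4 to 120 h. The adiponectin values were higher at each step than at the one before, the control values were not, and the arms overlapped. The slope was 0.21 (SE 0.04, adjusted p = 0.0166) in adiponectin and 0.07 (SE 0.04, adjusted p = 0.299) in control cultures. The difference between these slopes did not pass its own test (0.14, 95% interval 0.03 to 0.25, adjusted p = 0.499), so a rise particular to the adiponectin arm was not shown. All Il7 values lie below the array medians over all genes, and the background level of the arrays was not analysed here. Without the 4 h arrays the adjusted p of the adiponectin slope was 0.129.

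Lepr and Angpt1 passed in neither arm. Lepr, the receptor by which the niche stroma is usually marked, was at 7.22, 6.59, 7.34, 7.53 and 7.17 in control cultures and at 7.02, 6.78, 7.04, 7.59 and 7.71 in adiponectin cultures. Its slopes were 0.07 (95% interval -0.07 to 0.21, adjusted p = 0.480) and 0.17 (0.03 to 0.31, adjusted p = 0.140). The adiponectin slope passed once the 10 h control array was left out (adjusted p = 0.0481). The highest value of each arm was at 72 h in control and at 120 h in adiponectin cultures. All Lepr values, as those of Il7, lie below the array medians over all genes, where the background level was not analysed. Angpt1, a ligand of the TEK receptor on endothelium and stem cells, was at 9.08, 8.18, 9.08, 8.40 and 9.09 in control cultures and at 8.23, 8.75, 8.44, 8.48 and 9.22 in adiponectin cultures. Those control values alternate between about the same high and low level, and the slopes were 0.01 (-0.18 to 0.19, adjusted p = 0.972) and 0.12 (-0.06 to 0.31, adjusted p = 0.497).

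Vcam1, the integrin ligand by which stroma and marrow macrophages hold blood cells, was highest at the start. It was at 11.89, 11.41, 11.48, 11.27 and 11.14 in control cultures and at 11.94, 11.46, 11.06, 11.41 and 11.53 in adiponectin cultures. Its slopes were -0.13 (95% interval -0.24 to -0.01, adjusted p = 0.148) and -0.07 (-0.19 to 0.04, adjusted p = 0.522), and neither passed. As the mean of both arms it fell with arrays centred on their medians or without the 24 h arrays (adjusted p = 0.0470 and 0.0424, against 0.0911). Control values drifted down while the adiponectin values turned up after 24 h. Markers of macrophages, which can also carry Vcam1, did not fall beside it: 2 of 10 measured macrophage genes rose in control and 3 in adiponectin cultures, with none down. Their mean level ran from -0.19 to 0.24 over control and from -0.17 to 0.21 over adiponectin arrays, relative to the mean of all arrays, and their part in the Vcam1 values was not tested.

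Cxcl14 and Il34 varied least, but all Il34 values lie below the array medians over all genes, where the background level was not analysed. Cxcl14, a chemokine of stromal and epithelial cells, ranged from 10.27 to 11.03 with slopes of 0.03 (95% interval -0.06 to 0.11, adjusted p = 0.706) in control and -0.03 (-0.12 to 0.05, adjusted p = 0.725) in adiponectin cultures. Il34, the second ligand of the CSF1 receptor on macrophages and osteoclast precursors, ranged from 7.86 to 8.14 with slopes of 0.04 (-0.02 to 0.10, adjusted p = 0.378) and 0.01 (-0.05 to 0.07, adjusted p = 0.878). The upper ends of these intervals lie below the slopes estimated for Cxcl12 and Kitl. The other ligand of that receptor, Csf1, did rise, with slopes of 0.25 (SE 0.04, adjusted p = 0.00743) and 0.23 (SE 0.04, adjusted p = 0.00876).

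**Figure D2:**
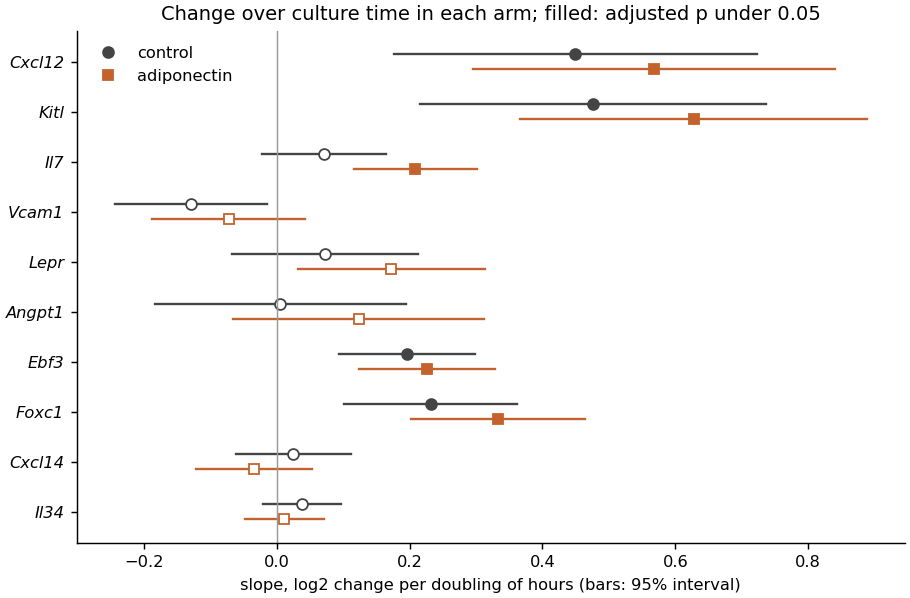
Slope over culture time of each of the 10 genes in control (circles) and adiponectin cultures (squares), in log2 change per doubling of hours, with bars for the 95% interval from the fit over all 10 arrays. Filled symbols passed an adjusted p under 0.05: Cxcl12, Kitl, Ebf3 and Foxc1 in both arms and Il7 in adiponectin cultures.

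Taking the mean of both arms' slopes narrows the errors and gives the same 5 members, of 10, against 9.87% of all genes rising. The mean slopes were 0.51 for Cxcl12 (SE 0.09, adjusted p = 0.00302), 0.55 for Kitl (SE 0.08, adjusted p = 0.00164), 0.21 for Ebf3 (SE 0.03, adjusted p = 0.00185), 0.28 for Foxc1 (SE 0.04, adjusted p = 0.00152) and 0.14 for Il7 (SE 0.03, adjusted p = 0.00844). Kitl kept its call under 15 of 15 alternative settings and Foxc1 under 14 of 14. Cxcl12 and Ebf3 lost it only without the 120 h arrays (adjusted p = 0.0597 and 0.0578), and Il7 lost it there (0.147) and as a late against early difference (0.123). With each array centred, the split over all genes for this mean moved from 1967 risen and 1702 fallen to 1704 and 2360. The calls of the single control arm were less firm. Without the 10 h control array 1 member passed there, Ebf3, with adjusted p of 0.0883 for Cxcl12, 0.0576 for Kitl and 0.0661 for Foxc1. With both 10 h arrays left out 1 member passed as well, Foxc1, and without the 24 h arrays 2, Kitl and Ebf3.

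Other genes of marrow stroma rose beside the members. Of 10 further markers of leptin receptor-positive stroma, 5 rose in control and 7 in adiponectin cultures, 4 of them in both, and none fell (4.45% of all genes fell in control and 3.46% in adiponectin cultures). The control slope was 0.62 (SE 0.16, adjusted p = 0.0369) for Adipoq, 0.46 (SE 0.07, adjusted p = 0.00913) for the BMP antagonist Grem1, 0.29 for the growth factor receptor Pdgfra (adjusted p = 0.0293) and 0.25 for Pdgfrb (adjusted p = 0.0164). The median slope of this list was 0.27 in control and 0.34 in adiponectin cultures. Among 14 mesenchymal transcription factors 8 rose in control and 7 in adiponectin cultures, led by Osr1 (control slope 0.74, SE 0.11), Tbx15 (0.41), Prrx2 (0.35) and Snai2 (0.34). Of 14 fibroblast matrix genes 5 and 6 rose, with Pcolce (control slope 0.39), Serpinf1 (0.37), Bgn (0.16) and Sparc (0.15) the steepest of those that rose in control cultures. Of 8 osteoblast genes 1 rose in each arm, the phosphatase gene Alpl (control slope 0.32, adjusted p = 0.0159), while Sp7, the transcription factor of committed osteoblasts, was at 0.16 (adjusted p = 0.406).

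Relatives of the members by family or role were split as well. Ebf2 rose beside Ebf3, with slopes of 0.33 and 0.38 in control and adiponectin cultures (adjusted p = 0.00741 and 0.00387), whereas Ebf1, which B cells also use, was at -0.08 and -0.03 (adjusted p = 0.204 and 0.778). Foxc2 rose beside Foxc1, by 0.26 and 0.42 (adjusted p = 0.00716 and 0.00198). Angpt2, the relative of Angpt1 that works against it at TEK, was at 0.48 and 0.49 (adjusted p = 0.0597 and 0.0614), short of the threshold, and Angpt4 rose by 0.20 and 0.25. The chemokine gene Cxcl13, which attracts B cells, rose by 0.67 and 0.38 (adjusted p = 0.00394 and 0.0172). In all, 5 of 11 relatives rose in both arms and none fell. Of 19 other stromal growth factor genes 4 rose in control and 5 in adiponectin cultures, among them Fgf7 (control slope 0.40), Tgfb3 (0.30), Ptn (0.28) and Csf1, which is also counted among the relatives, and 1 fell in adiponectin cultures, Jag1 (-0.19, adjusted p = 0.0405).

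Of 11 measured receptors and partners through which the members act none rose, 3 fell in control and 2 in adiponectin cultures. Kit, the receptor of the Kitl product, fell, with slopes of -0.33 (SE 0.04, adjusted p = 0.00394) and -0.29 (SE 0.04, adjusted p = 0.00442), and Il7r fell with -0.17 and -0.21 (adjusted p = 0.0170 and 0.00791). Cxcr4, the receptor for CXCL12, fell in control cultures (-0.15, adjusted p = 0.0267) and was at -0.09 in adiponectin cultures (adjusted p = 0.154). The second CXCL12 receptor, Ackr3, was at 0.06 and 0.01, the VCAM1-binding integrin genes Itga4 and Itgb1 at -0.03 and 0.04 in control cultures, Lep at 0.04, the angiopoietin receptor Tek at -0.02 and Csf1r, the receptor for IL34 and CSF1, at 0.06 (adjusted p from 0.285 to 0.736 for the control slopes of these 6).

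Genes of the blood cells that the niche serves were next. Among 8 measured genes of B cell precursors 4 fell in both arms: Pax5 (control slope -0.44), Rag1 (-0.41), Igll1 (-0.41) and Rag2 (-0.21). The mean level of these 8 went from 0.57 at 4 h to -1.04 at 120 h in control and from 0.56 to -1.05 in adiponectin cultures, relative to the mean of all arrays. Among 9 stem and progenitor genes 4 fell in control (Slamf1, Kit, Cd34 and Meis1) and 2 in adiponectin cultures. The mean level of the 10 stromal niche factors went from -0.06 to 0.52 and from -0.43 to 0.62 over the same span. Since cell numbers were not measured, the part of a changing cell mix in any of these slopes was not tested. Of the 140 genes in the lists used here, 36 rose and 13 fell in control cultures, but 1 and 1 without the 72 h arrays and 1 and 0 without the 120 h arrays. In adiponectin cultures 35 rose and 10 fell, but 6 and 3 without 72 h and 3 and 1 without 120 h.

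**Figure D3:**
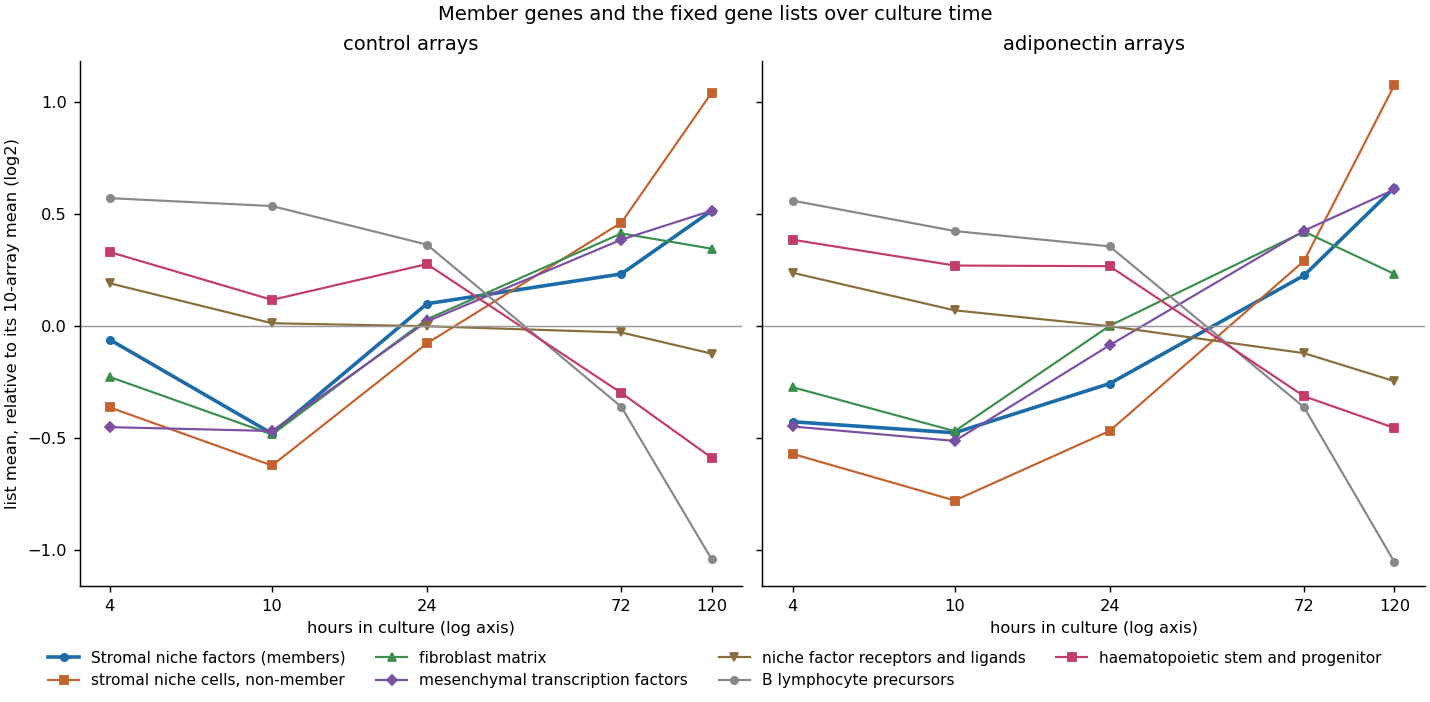
Mean level of the 10 stromal niche factors (thick line) and of 6 gene lists against hours in culture (log axis), in control (left) and adiponectin arrays (right), each gene first set to its own mean over the 10 arrays (log2 units). The stromal, matrix and mesenchymal lists end above 0 and the receptor, B cell precursor and progenitor lists below it in both arms, for example at 0.52 for the members and -1.04 for B cell precursors in the 120 h control array.

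Other tissue markers were less uniform. None of 8 pericyte and smooth muscle genes rose or fell in either arm; Des and Mcam had the largest control slopes, 0.09 and 0.08. Among 8 adipocyte genes Plin4 and Plin1 rose in control (0.24 and 0.16) and Pparg in adiponectin cultures (0.17). Endothelial genes, of which 11 were measured, fell in 3 cases in control (Vwf, Esam and Pecam1, at -0.47, -0.31 and -0.28) and in 2 in adiponectin cultures, and none rose. The others passed in neither arm, and the median slope of the 11 was -0.03 in control and -0.02 in adiponectin cultures. Osteoclast genes, which are not stromal, also rose, 7 of 8 in control and 3 of 8 in adiponectin cultures, with control slopes of 0.96 for Oscar, 0.86 for Ctsk, 0.76 for Ocstamp and 0.67 for Dcstamp.

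The genes whose values over the 10 arrays ran closest to those of a rising member were found by Pearson correlation, as a description; all 10 arrays share one time course. Fgfr2, a fibroblast growth factor receptor gene, was among the closest to both Ebf3 (r = 0.994) and Cxcl12 (r = 0.990), with slopes of 0.34 and 0.43 in control and adiponectin cultures. Abhd14b was the closest to Cxcl12 (r = 0.992), but its slope passed in neither arm (limma adjusted p = 0.0717 in control and 0.0753 in adiponectin cultures). For Kitl the closest were Ggact (r = 0.992) and Lhfp (r = 0.991), and for Ebf3 Nsg1 came second (r = 0.991). Lhfp rose in adiponectin cultures (limma adjusted p = 0.0276) and did not pass in control cultures (0.0776). Foxc1 was closest to Cd99l2 (r = 0.989) and to Nfia, a nuclear factor I gene (r = 0.987). For the dim Il7 they were Wdr18 (r = 0.985) and Alg1 (r = 0.984), neither of which rose in either arm.

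Adiponectin cultures were then set against the control culture of the same time. None of the 10 members passed as a mean difference over the 5 times (limma with time as a block), in a test where 2.05% of all genes rose and 0.371% fell. The median of the members was -0.13 log2, beside 0.01 over all genes. At an unadjusted p under 0.05, 3 members were lower (Cxcl12, Kitl and Cxcl14) and 0 higher, where 4.21% of all genes were lower at that level. An ordinary test without moderation gave 0 members too. With 1 array per arm and time, the differences at single times have no replicate and no test.

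For Cxcl12 the adiponectin minus control difference was -0.67, -0.15, -0.91, -0.06 and 0.03 at 4, 10, 24, 72 and 120 h. Kitl stood at -0.97, -0.04, -0.62, -0.19 and 0.08 at those times. For both genes the adiponectin culture was lower at 4 of 5 times, with the largest gaps at 4 and 24 h and almost none at 120 h. At 10 h both genes had their lowest control value, in the array with the lowest median over all genes (8.27). The part of that array in the small 10 h gaps was not tested. The means over times were -0.35 ± 0.41 (SD, n = 5 pairs; 95% interval -0.64 to -0.06, limma adjusted p = 0.324) for Cxcl12 and -0.35 ± 0.44 (-0.65 to -0.04, limma adjusted p = 0.374) for Kitl. Foxc1 was lower at 4 of 5 times (-0.32, -0.46, -0.26, -0.05 and 0.13; mean -0.19 ± 0.23, limma adjusted p = 0.543). Ebf3 differed by -0.23, -0.02, -0.32, 0.03 and -0.07 (mean -0.12 ± 0.15, limma adjusted p = 0.729).

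Cxcl14 was the 1 member lower in the adiponectin culture at all 5 times, a count that was not made over all genes. Its control values were 10.70, 10.74, 10.86, 11.03 and 10.68 from 4 to 120 h and its adiponectin values 10.64, 10.51, 10.56, 10.73 and 10.27. The differences were -0.06, -0.23, -0.30, -0.30 and -0.41, a mean of -0.26 ± 0.13 (SD, n = 5 pairs; 95% interval -0.43 to -0.09). This did not pass over all genes (limma adjusted p = 0.142, and from 0.0774 to 0.715 over the alternative settings). The ranges of the arms overlapped, since values also moved with time.

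The remaining 5 members had differences of both signs. Angpt1 went from -0.85 at 4 h to 0.57 at 10 h, then -0.64, 0.07 and 0.13 (mean -0.14 ± 0.58, limma adjusted p = 0.890). Its control values swing more than its adiponectin values at 4, 10 and 24 h, and the lowest was in the 10 h control array, which had the lowest median over all genes. Il7 was at -0.51, 0.19, 0.00, 0.21 and 0.36 (mean 0.05 ± 0.34), Lepr at -0.20, 0.19, -0.30, 0.06 and 0.54 (mean 0.06 ± 0.33) and Vcam1 at 0.05, 0.05, -0.42, 0.14 and 0.39 (mean 0.04 ± 0.29). Lipopolysaccharide and inflammatory cytokines are known inducers of Vcam1 in endothelium. Here its 95% interval was -0.19 to 0.27 (limma adjusted p = 0.952), and Icam1, another adhesion gene with that background, was at 0.61 ± 0.49 (limma adjusted p = 0.0715). In both values the hormone and the contaminant cannot be told apart. Il34 stayed between -0.14 and 0.19 (mean 0.02 ± 0.13, 95% interval -0.15 to 0.19).

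**Figure D4:**
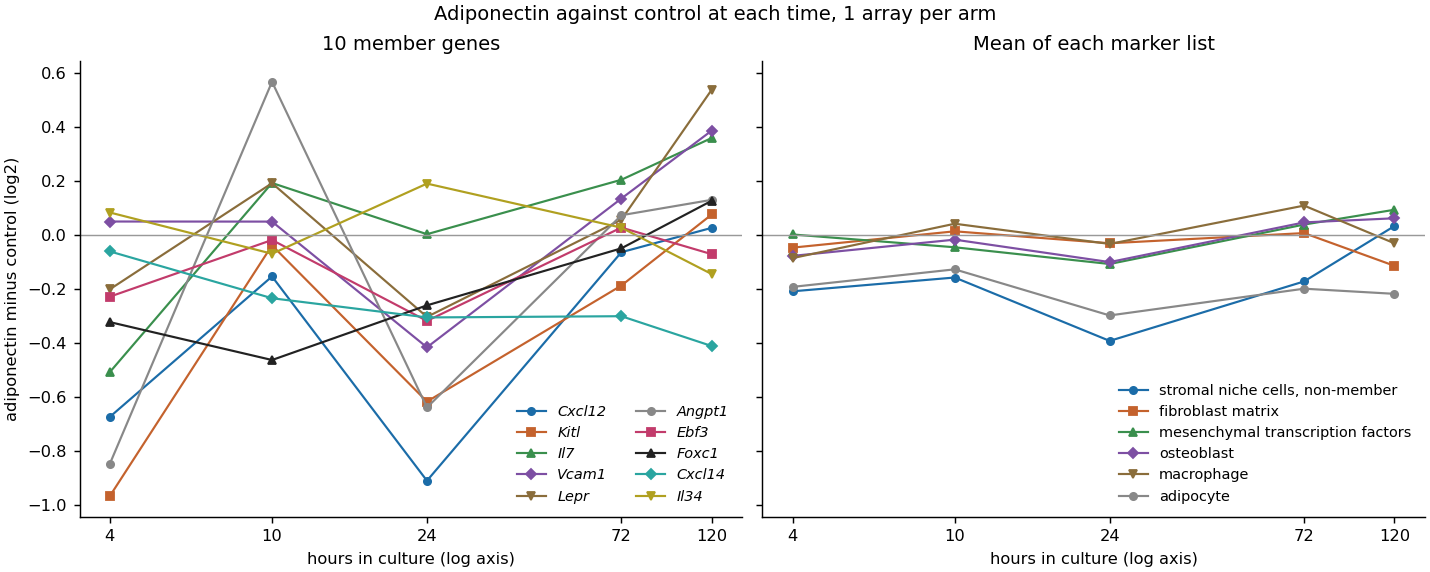
Adiponectin minus control (log2) at each of the 5 times (log axis), 1 array per arm, for the 10 stromal niche factor genes (left) and for the mean of 6 marker lists (right). Cxcl12, Kitl and Angpt1 are the 3 lowest at 4 and at 24 h, Cxcl14 stands at -0.41 at 120 h, and the non-member stromal list is at -0.39 at 24 h.

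By time, 8 of 10 members were lower in the adiponectin culture at 4 h, 6 at 10 h, 8 at 24 h, 4 at 72 h and 3 at 120 h. The median difference of the members was -0.27, -0.03, -0.31, 0.03 and 0.10, while the median of all genes lay between -0.03 and 0.07. The share of all genes lower at each time was not counted, and the 10 h control array had the lowest median over all genes. Stromal markers outside the members were lower at some of the same times. The mean difference of the 10 further niche stroma genes was -0.21, -0.16, -0.39, -0.17 and 0.03, that of the 8 adipocyte genes lay between -0.30 and -0.13 at every time, and that of the 14 fibroblast matrix genes between -0.11 and 0.01. Their part in the members' differences was not tested. In these lists Gas6, a ligand of the TAM receptors, fell (-0.89 ± 0.62, limma adjusted p = 0.0279), and so did Pparg (-0.53 ± 0.36, limma adjusted p = 0.0475). Both calls were lost without the 4, 10 or 24 h pair, without the time block, with log2 hours in its place and without moderation. Gas6 also lost its call with quantile normalization repeated and with an intensity trend and robust prior. Gas6 passed under 6 of 14 alternative settings and Pparg under 8 of 14. Among the other stromal growth factors the Notch ligand gene Jag1 (0.55 ± 0.26) and Il6 (0.80 ± 0.50) rose. Both lost the call without the 24 h pair, without the time block, with log2 hours in its place and without moderation. Jag1 also lost it without the 10 h pair, and Il6 from the 4, 10 and 24 h pairs alone. All Il6 values lie below the array medians over all genes, where the background level was not analysed.

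Whether the difference between arms changed with time was tested as the treatment by log2 hours term beside the time block. No member passed, and 0% of all genes did (limma; 0 of 19938). At an unadjusted p under 0.05 the difference moved upward with time for 3 members, Kitl (0.15 per doubling, 95% interval 0.01 to 0.29), Il7 (0.14, 0.03 to 0.25) and Foxc1 (0.10, 0.01 to 0.19), where 3.11% of all genes did so, and downward for none. Their adjusted p-values were 0.501, 0.499 and 0.499. Cxcl12 was at 0.12 (-0.03 to 0.27) and Cxcl14 at -0.06 (-0.14 to 0.02).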

How the data were processed

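The authors deposited 1 log2 value per probe set and array (35556 probe sets, 10 arrays). Affymetrix Expression Console, Partek and RMA are named in the submitters' processing notes. Versions, their order and the genome build are not given in the sources used. RMA includes quantile normalization, which reduces shifts shared by most genes. In the deposited values the median over all probe sets still ran from 7.90 in the 10 h control to 8.08 in the 120 h control array. Symbols came from the platform annotation: 21789 probe sets had 1 symbol, 1621 several and 12146 none. For the 999 genes with several probe sets the one with the highest mean was used, which left 19938 genes, with no filter on dim genes. The listed genes Il2rg, Fbn1, Thpo, Spp1, Bglap and Cfd were not analysed here.

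Tests used limma 3.58.1 in R 4.3.3 (lmFit, eBayes, two-sided, Benjamini-Hochberg over all 19938 genes, threshold 0.05) on the log2 values. Slopes came from 1 fit of arm-specific intercepts and log2 hours slopes (6 residual degrees of freedom), which treats both arrays of a time as independent. For the adiponectin effect, arrays were paired by their labelled time point, which entered as a block (4 residual degrees of freedom). The tests were checked on simulated data with independent noise in each array. The planted sizes were larger than every member's control slope, adiponectin effect and change with time. They were also larger than the adiponectin and mean slopes of Ebf3, Foxc1 and Il7. Power for slopes and effects as small as these, or for arrays that share a time, was not covered. The members, gene lists and tests were chosen with earlier results of these data known. Named were all members, in each list up to 4 called genes by size of slope or, where fewer than 2 were called, the 2 largest, relatives and receptors of the members, and the 2 genes most correlated with each rising member. Genes can stand in more than 1 list. Alternatives were scaling, probe set choice, a filter on dim genes, the prior, the time scale, blocks and leaving out each time. Leaving out the 10 h control array was added after seeing the data.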

Additional observations from a re-analysis of the deposited data

Results flagged for a closer look

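Il34 in the control culture at 120 h stood apart from the other 4 control arrays. It was at 8.14, while the others lay between 7.88 and 7.96, so the gap to the nearest value took up 0.713 of the whole range, just above Dixon's critical value at 95% for 5 values. It was the 1 set flagged of 30 examined (each arm and the differences between arms, for 10 genes), where chance flags about 1 in 20. The 5 arrays of an arm are different times and not replicates.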

How the results depend on the processing

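The members called numbered 4 in control cultures, 5 in adiponectin cultures and 5 for the mean slope, all of them rises. Leaving out the arrays of each time in turn gave 0 to 4, 0 to 5 and 2 to 6. Calls in either direction are counted in the alternatives, such as the fall of Vcam1 in the mean slope without the 24 h arrays. An intensity trend with a robust prior gave 2 in control cultures, and leaving out the 10 h control array, chosen after seeing the data, gave 1. Testing only genes above the median level gave 3 in adiponectin cultures and 3 for the mean slope; this filter removes Il7, Lepr, Foxc1 and Il34. The other alternatives stayed within 1.5 times these counts. The adiponectin effect and its change with time called 0 members under every alternative run.

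Signs turned only for values that never passed; the cause was not tested. With arrays centred the control slope of Angpt1 became -0.0144, without the 10 h control array -0.0590, and as 72 and 120 h minus earlier -0.0353. Quantile normalization repeated gave a Cxcl14 mean slope of 0.00273, an Il34 effect of -0.0236 and an Il34 change with time of 0.00941, and the late minus early form a Cxcl14 mean of 0.00863. From the 4, 10 and 24 h pairs alone the effects on Il7, Vcam1 and Lepr were -0.103, -0.104 and -0.103. Leaving out each time in turn, the control slope ran from -0.0872 to 0.143 for Angpt1 and from -0.00296 to 0.0811 for Cxcl14. The adiponectin slope ran from -0.138 to 0.0427 for Vcam1, from -0.0708 to 0.0249 for Cxcl14 and from -0.000202 to 0.0269 for Il34, and the mean slope from -0.0287 to 0.119 for Angpt1 and from -0.0369 to 0.0530 for Cxcl14. The effect ran from -0.0257 to 0.191 for Il7, -0.0442 to 0.157 for Vcam1, -0.0628 to 0.148 for Lepr, -0.320 to 0.0342 for Angpt1 and -0.0248 to 0.0590 for Il34. The change with time ran from -0.00844 to 0.122 for Vcam1, -0.0497 to 0.214 for Angpt1 and -0.0396 to 0.00486 for Il34.

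Over all genes, control cultures gave 925 risen and 888 fallen, against 1743 and 1335 on linear hours, 513 and 490 with the arm fitted alone, 605 risen among 9969 brighter genes, and from 5 to 1476 risen and 17 to 1195 fallen with a time left out. Adiponectin cultures gave 827 and 689, against 23 to 868 and 15 to 940 with a time left out. The mean slope gave 1967 and 1702, against 985 and 974 for the slope of the mean of each time's arrays, and 465 to 2152 and 432 to 1912 with a time left out. The adiponectin effect gave 408 and 74, against 146 and 4 without the block, 283 and 30 with log2 hours in its place, 233 and 43 from the 3 early pairs, 9 and 0 unmoderated, and 113 fallen (quantile) or 117 (trend), with 21 to 62 fallen when a time was left out. The change with time gave 0, against 2 and 3 with the trend prior. The arms were paired by time point; with time as a random block in the slope fits (correlation 0.184) no count of members moved. The number of arrays limits the precision.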
